A study of Homo sapiens with 38 samples.

Results

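The J-domain co-chaperones of the endoplasmic reticulum (ER) were followed through cultures under glucose-related stress. The 6 genes described are DNAJB9, DNAJB11, DNAJC3, DNAJC10, DNAJC1 and SEC63. They were taken by gene symbol, current or former, from the annotation of the array, and all 6 were among the 11436 genes tested. They are covered by 21 probe sets, of which 19 passed the filter on low values, and the probe set with the highest mean stands for each gene unless another is named.

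The 38 arrays held RNA of HT-1080, a fibrosarcoma line, of HT-29, a colorectal adenocarcinoma line, and of derivatives of both that lack mitochondrial DNA (rho0). Unstressed cultures gave 12 arrays: 6 of HT-1080, 3 of HT-29, 2 of HT-1080(rho0) and 1 of HT-29(rho0). The other 26 were exposed to 2-deoxyglucose (2DG), a glucose analogue that blocks glycolysis and N-glycosylation, to glucose starvation (GS), or to tunicamycin (TM), which blocks N-glycosylation. HT-1080 received 2DG alone on 3 arrays, GS alone on 2 and TM alone on 1, and HT-29 received GS alone on 3. One array each was made of HT-1080 under 2DG with metformin (Met, 10 mM), buformin (Bu, 300 µM) or phenformin (Phen, 100 µM), which are biguanides. Rotenone (Rot, 100 nM) and antimycin A (AA, 10 ng/ml), inhibitors of respiratory complexes I and III, were added to 2DG and to TM on 1 array each and to GS on 3 arrays in all. Versipelostatin (VST, 3 µM) was added to 2DG and GS in HT-1080 and to GS in HT-29, on 1 array each. The rho0 arrays under stress were HT-1080(rho0) with 2DG, GS and TM and HT-29(rho0) with GS. Exposure lasted 18 h, except 14 h for HT-29(rho0) under GS and for its parental counterpart, HT-29 GS replicate 3. The sources used here do not give the amounts of 2DG and TM. Arrays marked S (GS+Rot_S, GS+AA_S and HT-1080(rho0) GS_S) held the supernatant with floating cells. The compounds were never given without a stress, and each rho0 line is described only as derived from its parent.

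J-domain proteins carry a short helical domain that docks on HSP70 chaperones and speeds their ATP hydrolysis, so that the HSP70 closes on a client. In the ER the HSP70 is BiP (HSPA5), and its J-domain partners assign it to different tasks. DNAJB9 (ERdj4) hands misfolded proteins to degradation and brings BiP to the stress sensor IRE1. DNAJC10 (ERdj5) is a disulfide reductase that opens misfolded proteins for export from the ER. DNAJB11 (ERdj3) and DNAJC3 (p58IPK, ERdj6) are luminal co-chaperones that hold unfolded clients for BiP. SEC63 (ERdj2) and DNAJC1 (ERdj1) are membrane proteins that place BiP at the protein translocation channel and beside the ribosome. Several of these genes are known targets of the unfolded protein response.

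The promoter windows are shown because the members rose together under 2DG and GS. Their readings then differed when a biguanide was added to 2DG, although differences between members were not tested. RefSeq promoter windows on GRCh38.p14, each 300 bases long and spanning the annotated start, were at hand for DNAJB9 (chr7:108569624-108569923, plus strand), DNAJB11 (chr3:186570470-186570769, plus strand), DNAJC3 (chr13:95676889-95677188, plus strand), DNAJC10 (chr2:182716007-182716306, plus strand) and SEC63 (chr6:107958159-107958458, minus strand). Capitals mark CCAAT and CCACG, the outer parts of the ER stress element, read on either strand (ATTGG and CGTGG are their reverse forms). In DNAJC10 the longer capital run CCACGTCA is the reverse form of the unfolded protein response element.
DNAJB9: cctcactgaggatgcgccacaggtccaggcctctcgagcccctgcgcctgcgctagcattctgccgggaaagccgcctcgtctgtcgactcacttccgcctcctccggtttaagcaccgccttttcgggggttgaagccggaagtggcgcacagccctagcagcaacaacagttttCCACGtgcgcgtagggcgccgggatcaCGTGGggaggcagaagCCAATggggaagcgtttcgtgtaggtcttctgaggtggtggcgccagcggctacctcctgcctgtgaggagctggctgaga
DNAJB11: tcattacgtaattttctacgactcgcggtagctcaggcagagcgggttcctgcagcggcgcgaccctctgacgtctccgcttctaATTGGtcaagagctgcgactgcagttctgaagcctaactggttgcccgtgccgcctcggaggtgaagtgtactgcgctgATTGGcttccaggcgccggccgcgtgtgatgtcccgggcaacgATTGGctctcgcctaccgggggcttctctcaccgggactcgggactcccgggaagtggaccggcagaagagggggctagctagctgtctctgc
DNAJC3: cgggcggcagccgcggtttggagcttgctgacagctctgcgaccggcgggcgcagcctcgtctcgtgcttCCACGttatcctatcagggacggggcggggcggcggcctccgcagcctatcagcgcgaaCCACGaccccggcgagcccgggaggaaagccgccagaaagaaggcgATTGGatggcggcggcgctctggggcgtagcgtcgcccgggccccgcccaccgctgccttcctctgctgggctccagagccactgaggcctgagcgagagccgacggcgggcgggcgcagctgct
DNAJC10: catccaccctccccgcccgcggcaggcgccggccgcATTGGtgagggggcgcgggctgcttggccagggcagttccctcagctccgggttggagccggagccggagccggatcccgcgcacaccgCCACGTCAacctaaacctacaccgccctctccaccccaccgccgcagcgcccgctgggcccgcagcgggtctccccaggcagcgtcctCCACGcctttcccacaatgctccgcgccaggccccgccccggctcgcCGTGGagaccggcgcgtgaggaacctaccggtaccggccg
SEC63: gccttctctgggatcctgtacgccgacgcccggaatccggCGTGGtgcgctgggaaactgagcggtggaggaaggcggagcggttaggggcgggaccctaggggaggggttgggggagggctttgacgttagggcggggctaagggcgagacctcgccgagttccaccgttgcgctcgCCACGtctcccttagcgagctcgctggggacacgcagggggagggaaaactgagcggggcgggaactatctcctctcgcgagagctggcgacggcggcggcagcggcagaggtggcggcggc
Searched on both strands, the full ER stress element (ERSE) lay in 0.0806% of the 27305 promoter windows of this length, its second form ERSE-II in 0.0549%, the unfolded protein response element TGACGTGG in 0.795% and the ATF4 site TGATGNAAT in 1.02%. At least 1 of the 4 lay in 1.93% of windows. Of the 5 member windows, DNAJC10 held TGACGTGG, at 125 to 118 bases before the start on the minus strand, where it overlaps a CCACG; the other windows held none of the 4. The parts CCAAT (35.7% of all windows) and CCACG (37.9%) occurred together in DNAJB9, DNAJC3 and DNAJC10, as in 12.5% of all windows. DNAJB11 held CCAAT 3 times on the minus strand and no CCACG, and SEC63 held CCACG 2 times and no CCAAT. These matches describe the letters of the windows; binding was not measured.

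The values are signals from the array scanner software, scaled here to a common trimmed mean, and a change is the difference of log2(signal + 5.72) between a treated array and the control array that its description names. Control arrays are shared: the biguanides and 2DG+VST have HT-1080 control 3, 2DG+Rot, 2DG+AA and 2DG replicate 2 have control 4, and TM, GS replicate 2 and all TM or GS arrays with Rot or AA have control 6. The arrays of stressed cultures with a compound were dimmer as deposited. Where a compound joined 2DG or GS, the trimmed mean over all probe sets was 90.0 to 103 (11 arrays). In rho0 cells under 2DG or GS it was 90.7 to 96.8 (3 arrays), beside 110 to 118 on the rho0 controls (3 arrays) and 113 under TM (1 array). It was 125 to 137 on the 9 parental controls, 122 to 132 on the 9 parental arrays with stress alone, and 118 to 120 on TM with a compound. Scaling removes that difference, so a level here is relative to the other transcripts of the same array, and the deposited scale is quoted where it changes a call. Taken as sums, the line markers matched the labels. The 8 colon epithelial markers summed to 14934 to 23649 in HT-29 and 308 to 652 in HT-1080. Singly, VIL1 (8.54 to 48.9 in HT-29, 1.12 to 30.7 in HT-1080), CDX2 (0.66 to 9.42 and 0.50 to 15.2) and KRT20 (12.6 to 3900 and 0.76 to 19.6) overlapped. The 7 measured mitochondrial transcripts summed to 25221 to 64008 in HT-1080 and 13.2 to 28.3 in HT-1080(rho0). The p-values rest on the spread between arrays of a group, which may be technical. Where compounds were pooled as a class, that spread includes differences between them and between GS+Rot and GS+Rot_S. In fits with treated HT-29 arrays it also includes the difference between 14 h and 18 h under GS. A bulk array cannot tell more RNA per cell from a shift in which cells were collected.

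**Figure D1:**
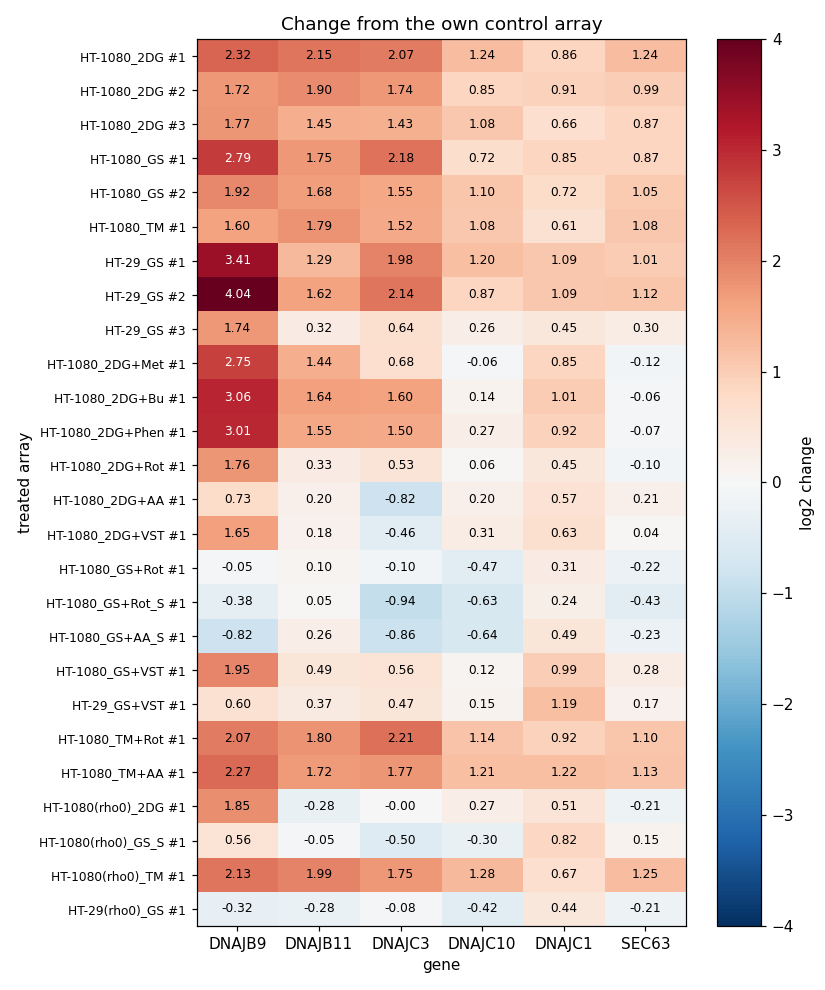
Log2 change of each member (columns) on each of the 26 treated arrays (rows) from the control array that its description names; red is higher and blue lower than that control. All 6 columns are red on the 9 parental arrays with stress alone, from 0.26 for DNAJC10 on HT-29 GS replicate 3 to 4.04 for DNAJB9 on HT-29 GS replicate 2, while DNAJC10 and SEC63 stay between -0.64 and 0.31 where a compound joined 2DG or GS.

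All 6 members rose under 2DG in HT-1080. DNAJB9 read 902, 669 and 551 under 2DG against 176, 199 and 158 on the own controls. DNAJB11, the luminal client holder, read 3889, 3067 and 2275 against 871, 819 and 832. DNAJC3 read 1652, 792 and 691 against 389, 234 and 253. In none of these 3 members did a 2DG array overlap the 6 HT-1080 controls. DNAJC10 read 1494, 1266 and 1455 against 631, 702 and 683, and SEC63 read 1280, 1056 and 1005 against 540, 528 and 547, again with no overlap. DNAJC1, the ribosome-side member, read 2291, 1450 and 1204 against 1258, 768 and 758, and its lowest 2DG array lay under its highest control of 1258. Here and below, the share of all genes whose arrays do not overlap was not counted, so overlap is description only.

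By limma's moderated test with the control set as a block, DNAJB9 was 3.83-fold higher under 2DG (log2 1.94, SE 0.34, adjusted p = 0.00666, n = 3), DNAJB11 3.56-fold (log2 1.83, SE 0.20, adjusted p = 0.000971) and DNAJC3 3.35-fold (log2 1.75, SE 0.25, adjusted p = 0.00311). DNAJC10 was 2.08-fold higher (adjusted p = 0.00449), SEC63 2.05-fold (adjusted p = 0.00409) and DNAJC1 1.76-fold (adjusted p = 0.00535). The 6 of 6 members called higher compare with 4.84% of all genes tested, and the median member change of 1.40 with a median of 0.02 over all genes. DNAJB9, DNAJB11 and DNAJC3 had the larger fitted changes; differences between members were not tested. The threshold rested on 3 pairs: without 2DG replicate 1 or its control 2, DNAJB11 alone passed, and without 2DG replicate 2 or its control 4, DNAJB11, DNAJC3 and DNAJC10 passed, with DNAJB9 at 1.74 to 2.04 throughout.

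Around the members, the same arrays showed a rise of their partners. Of the 9 measured genes of the HSP70 cycle and BiP partners, 6 rose under 2DG (median 1.30), among them HSP90B1 (the ER HSP90, 2.09), SDF2L1 (a BiP cycle partner of DNAJB11, 2.08), HYOU1 (the nucleotide exchange factor of BiP, 1.97) and MANF (1.60); BiP itself, HSPA5, rose by 1.30. Of the 9 SEC translocon genes 4 rose (median 0.50), led by TRAM1 at 1.00 and SSR3 at 0.87. Of 10 XBP1 and ATF6 targets 7 rose (median 1.35), and of 10 genes of the PERK and ATF4 arm 7 rose (median 1.29). None of the 24 measured J-domain genes that act outside the ER lumen passed the test in either direction (median -0.05).

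Under GS the members rose in both lines. In HT-1080 the own-control changes on replicates 1 and 2 were 2.79 and 1.92 for DNAJB9, 1.75 and 1.68 for DNAJB11, 2.18 and 1.55 for DNAJC3, 0.72 and 1.10 for DNAJC10, 0.87 and 1.05 for SEC63 and 0.85 and 0.72 for DNAJC1. The fit called all 6 higher, where 4.26% of all genes were, with DNAJB9 at 5.11-fold (adjusted p = 0.00742), DNAJC3 at 3.65-fold (adjusted p = 0.0059) and DNAJB11 at 3.28-fold (adjusted p = 0.00361). DNAJC10, SEC63 and DNAJC1 were 1.87-fold, 1.95-fold and 1.72-fold higher (adjusted p = 0.0207, 0.0143 and 0.0156). The member median was 1.34 against -0.02 over all genes. With only 2 pairs, no member passed once either GS array or either of controls 1 and 6 was left out, although each kept its direction (DNAJB9 1.92 to 2.79, adjusted p = 0.0782 to 0.195).

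In HT-29 DNAJB9 reached its highest levels of the series. It read 1928, 3744 and 915 on GS replicates 1, 2 and 3 against 176, 222 and 271 on their controls. The 14 h array, replicate 3, was the lowest of the 3 but still above every control. DNAJC3 read 2788, 2962 and 718 against 702, 668 and 460, and DNAJB11 read 4154, 3697 and 1876 against 1697, 1195 and 1500. Each 14 h value was above the highest HT-29 control of its gene, by little in both cases. All 6 members were called higher, where 11.6% of all genes were (member median 0.98, all genes -0.05): DNAJB9 by 8.36-fold (adjusted p = 0.00036), DNAJC3 by 3.00-fold (adjusted p = 0.00183), DNAJB11 by 2.11-fold (adjusted p = 0.00404), DNAJC1 by 1.83-fold (adjusted p = 0.0016), SEC63 by 1.75-fold (adjusted p = 0.00463) and DNAJC10 by 1.71-fold (adjusted p = 0.00679).

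The 14 h array gave lower values than the 18 h arrays for each member; no test separated time from culture. On the 18 h arrays the changes were 3.41 and 4.04 for DNAJB9, 1.29 and 1.62 for DNAJB11, 1.98 and 2.14 for DNAJC3, 1.20 and 0.87 for DNAJC10, 1.09 on both for DNAJC1, and 1.01 and 1.12 for SEC63. At 14 h they were 1.74, 0.32, 0.64, 0.26, 0.45 and 0.30 in the same order of genes. With the 14 h array alone, DNAJB9 passed the test (1.74, adjusted p = 0.0124) and the other 5 did not (adjusted p = 0.177 to 0.599). No member's response to GS differed between the lines in the test of that difference, where 0.568% of all genes did. DNAJB9 differed by -0.71, HT-1080 minus HT-29 (95% interval -1.87 to 0.45, adjusted p = 0.597) and DNAJB11 by 0.64 (95% interval -0.07 to 1.34, adjusted p = 0.42). Without HT-29 GS replicate 3 or its control, that is with 18 h arrays only, DNAJB9 was the only member to pass. It was lower in HT-1080 (log2 -1.37, adjusted p = 0.03 without the treated array). That setting called 394 of all genes higher and 376 lower, where the main test called 65 in either direction.

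TM alone was measured on 1 HT-1080 array. DNAJB9 read 667 against 216 on its control, DNAJB11 2953 against 851, and DNAJC3 997 against 344. DNAJC10 read 1527 against 717, SEC63 1154 against 545 and DNAJC1 1457 against 954. Each value was above all 6 HT-1080 controls. The fit, which also uses GS replicate 2 and its control 6, gave 1.82 for DNAJB9, 1.80 for DNAJB11, 1.68 for DNAJC3, 0.99 for DNAJC10, 1.03 for SEC63 and 0.64 for DNAJC1. None passed (adjusted p = 0.134 to 0.635), and limma called 0 of all genes (0%), with 685 at an unadjusted p under 0.05. The 6 member p-values were all among those 685 (0.000164 for DNAJB11 to 0.0124 for DNAJC1). With HT-1080 and HT-1080(rho0) arrays alone, whose spread was smaller, all 6 passed (adjusted p = 0.000546 for DNAJB11 to 0.0423 for DNAJC1). That setting called 130 of all genes higher and 63 lower.

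With a biguanide added to 2DG, the members read differently against 2DG alone, although differences between members were not tested. No array of 2DG alone shares control 3 with the biguanides, so the signals below are set side by side across control sets. DNAJB9 read 1122 with Met, 1393 with Bu and 1341 with Phen, all above the 3 arrays of 2DG alone (551 to 902). DNAJB11 read 2646, 3042 and 2855, inside the 2DG range of 2275 to 3889. DNAJC1 read 1514, 1691 and 1581, inside the range of 1204 to 2291. DNAJC10 and SEC63 were back near the controls: DNAJC10 read 655, 756 and 827 against 683 on control 3, with Bu and Phen above the highest HT-1080 control of 717, and SEC63 read 502, 524 and 520 against 547. Neither overlapped the 2DG arrays (DNAJC10 1266 to 1494, SEC63 1005 to 1280). DNAJC3 read 428 with Met, 813 with Bu and 759 with Phen, against 264 on control 3 and 691 to 1652 under 2DG alone.

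**Figure D2:**
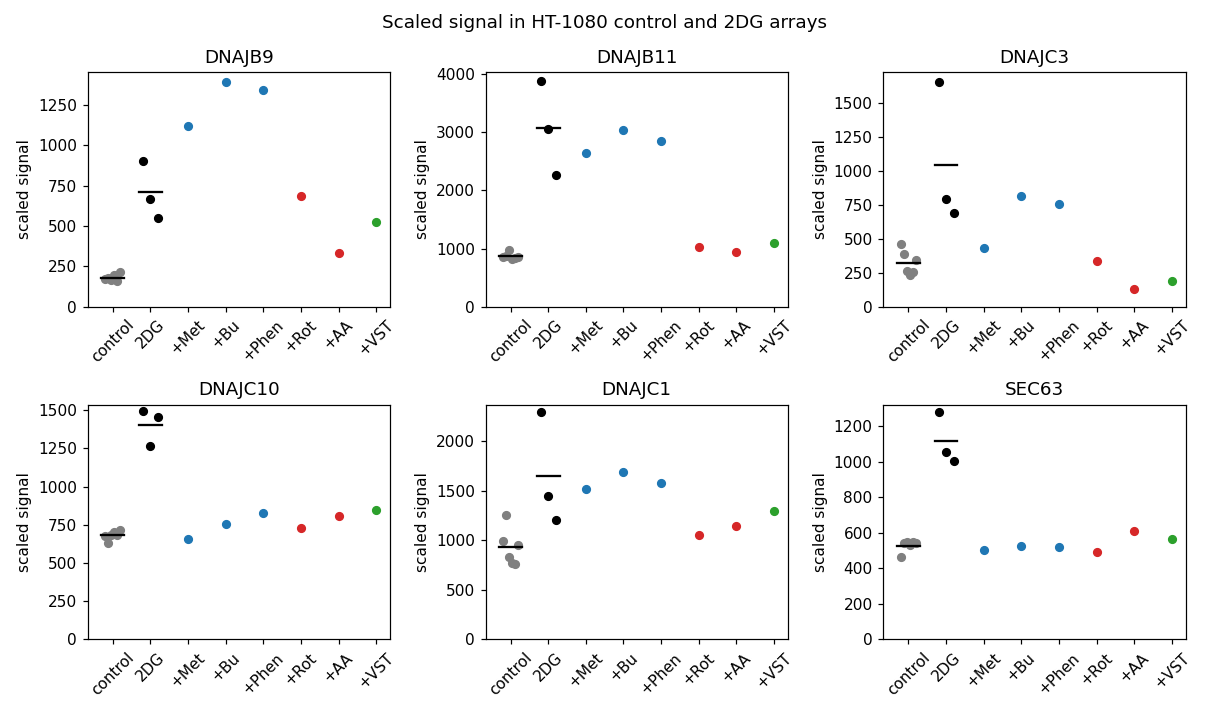
Scaled signal of each member in HT-1080 on the 6 controls, the 3 arrays of 2DG alone and the single arrays of 2DG with Met, Bu, Phen, Rot, AA or VST; points are arrays and black bars are means of the control and 2DG groups. DNAJB9 with a biguanide (1122 to 1393) lies above 2DG alone, DNAJB11 (2646 to 3042) within it, and DNAJC10 (655 to 827) and SEC63 (502 to 524) lie near the controls.

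Against 2DG alone, the biguanide arrays were lower for SEC63 (log2 -1.12, SE 0.25, adjusted p = 0.00373, n = 3 and 3) and DNAJC10 (log2 -0.94, SE 0.26, adjusted p = 0.0136), and the other 4 members did not pass. The 2 of 6 called lower compare with 14.3% of all genes, and the member median of -0.39 with -0.16 over all genes. DNAJB9 was 1.00 higher (95% interval -0.16 to 2.16, adjusted p = 0.215), DNAJB11 differed by -0.29 (95% interval -0.90 to 0.33), DNAJC3 by -0.48 (95% interval -1.68 to 0.71) and DNAJC1 by 0.12 (95% interval -0.34 to 0.57). The calls on DNAJC10 and SEC63 came from the brightest probe sets. With the mean over all probe sets of a gene, neither passed (DNAJC10 -0.78, adjusted p = 0.0606, and SEC63 -0.43, adjusted p = 0.254).

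With Rot or AA added to 2DG, DNAJB11, DNAJC3, DNAJC10 and SEC63 read nearer to control 4 than to 2DG replicate 2. DNAJB11 read 1031 with Rot and 942 with AA against 819 on control 4 and 3067 on 2DG replicate 2, which shares that control. DNAJC3 read 340 with Rot and 130 with AA against 234 on the control and 792 under 2DG, and its AA array was the lowest of the series. DNAJC10 read 731 and 809 against 702 on the control, and SEC63 491 and 610 against 528. DNAJB9 read 686 with Rot and 332 with AA against 199 on the control and 669 on 2DG replicate 2. DNAJC1 read 1054 and 1147 against 768 on the control.

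In the fit against 2DG alone, DNAJB11 (log2 -1.60, SE 0.22, adjusted p = 0.000101, n = 2 and 3), DNAJC3 (log2 -1.89, SE 0.44, adjusted p = 0.00389), DNAJC10 (log2 -0.82, adjusted p = 0.00464) and SEC63 (log2 -0.96, adjusted p = 0.00119) were lower with Rot or AA. The 4 of 6 called lower compare with 16.9% of all genes, and the member median of -0.89 with -0.11. DNAJB9 did not pass (log2 -0.59, 95% interval -1.48 to 0.30, adjusted p = 0.33), and its value was -0.0705 without the AA array and -1.10 without the Rot array. DNAJC1 did not pass either (log2 -0.35, adjusted p = 0.128), although it did on the deposited scale (-0.74, adjusted p = 0.00197) and after quantile normalization (-0.49, adjusted p = 0.027). Without 2DG replicate 2, the array that shares control 4, DNAJB11 alone passed, and without the AA array DNAJC3 did not (-1.21, adjusted p = 0.0759). SEC63 did not pass with the mean over its probe sets (-0.41, adjusted p = 0.124).

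Set directly against Rot and AA under 2DG, the biguanides gave higher values for DNAJB9, DNAJB11, DNAJC3 and DNAJC1, but none passed the test over all genes. From own controls, DNAJB9 changed by 2.75, 3.06 and 3.01 with Met, Bu and Phen and by 1.76 and 0.73 with Rot and AA. DNAJB11 gave 1.44, 1.64 and 1.55 against 0.33 and 0.20. DNAJC3 gave 0.68, 1.60 and 1.5 against 0.53 and -0.82. For these 3 members the biguanide and Rot or AA arrays did not overlap, and neither did they for DNAJC1 (0.85, 1.01 and 0.92 against 0.45 and 0.57). DNAJC10 (-0.06, 0.14 and 0.27 against 0.06 and 0.20) and SEC63 (-0.12, -0.06 and -0.07 against -0.10 and 0.21) overlapped. With so few arrays the separation is description only, and the share of all genes that separate alike was not counted.

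The fitted difference, biguanides minus Rot and AA, was 1.31 for DNAJB11 (SE 0.33, 95% interval 0.62 to 2.00, unadjusted p = 0.000783, adjusted p = 0.218). It was 1.59 for DNAJB9 (SE 0.62, 95% interval 0.29 to 2.89, adjusted p = 0.602) and 1.41 for DNAJC3 (SE 0.64, 95% interval 0.07 to 2.74, adjusted p = 0.663). DNAJC1 differed by 0.46 (95% interval -0.04 to 0.97, adjusted p = 0.708), DNAJC10 by -0.12 (95% interval -0.71 to 0.48) and SEC63 by -0.16 (95% interval -0.73 to 0.42). The test called 2 of all genes higher (0.0175%) and none lower, with 836 at an unadjusted p under 0.05; the called genes were SDF2L1 (2.65) and TMEM50B (2.52), both chosen after their values were seen. The member median was 0.89 against -0.06 over all genes. The interval of DNAJC3 turned on single arrays, with 0.73 without AA and 2.08 without Rot.

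Each class was tied to 1 control array, control 3 for the biguanides and control 4 for Rot and AA, so the block leaves few arrays to separate the classes, and class and control set cannot be told apart without it. With the controls of a line pooled in place of the block, DNAJB9 (1.41, adjusted p = 0.037) and DNAJB11 (1.52, adjusted p = 0.000297) passed, and 253 genes did. With HT-1080 and HT-1080(rho0) arrays alone, DNAJB11 passed (1.31, adjusted p = 0.0238), where 13 of all genes were called higher and 2 lower. The compounds were given at 1 dose each and on different molar scales, so their values stand side by side. No single compound was tested against another, and the comparison of the classes carries the same limit.

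Among the other lists, the same contrast called 1 of 9 HSP70 cycle genes, SDF2L1, and none of the SEC translocon, XBP1 and ATF6, PERK and ATF4 or other J-domain genes. The list medians were 1.06, 0.04, 0.78, 0.66 and -0.05 in that order. Against 2DG alone, Rot or AA lowered 6 of 9 HSP70 cycle genes (HYOU1 -1.93, HSP90B1 -1.30) and 8 of 10 XBP1 and ATF6 targets (CRELD2 -2.48, SEL1L -2.14), where the biguanides lowered 1, SDF2 (-0.96), and 2, EDEM1 (-1.61) and PDIA4 (-1.12). The cytosolic J-domain gene DNAJB1, a heat shock co-chaperone, was raised by Rot or AA under 2DG (2.71, adjusted p = 0.00343). That is opposite in direction to DNAJB11, DNAJC3, DNAJC10 and SEC63, while DNAJB9 and DNAJC1 did not pass there. Of the 24 J-domain genes outside the ER lumen, 3 were higher and 3 lower with Rot or AA, and 3 higher and 2 lower with the biguanides. Over all 11436 genes, 16.9% were lower with Rot or AA and 14.3% with the biguanides, and 1168 and 857 genes were higher. Whether a list differed from all genes was not tested.

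Under GS with Rot or AA, 5 members lay close to or under the control level. DNAJB9 read 209 with GS+Rot, 165 with GS+Rot_S and 120 with GS+AA_S against 216 on control 6 and 832 on GS replicate 2, which shares that control. DNAJB11 read 909, 878 and 1022 against 851 and 2745. DNAJC3 read 321, 177 and 187 against 344 and 1021. For each of these members the inhibitor arrays were far under the 2 GS arrays. DNAJB9 on GS+AA_S lay under the lowest HT-1080 control of 158, and DNAJC3 on GS+Rot_S and GS+AA_S under the lowest of 234. DNAJC10 read 518, 461 and 458, all under the lowest HT-1080 control of 631, and SEC63 read 466, 404 and 462 against control values of 461 to 547.

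The fit against GS alone gave -2.55 for DNAJB9 (SE 0.41, adjusted p = 0.000141, n = 3 and 2), -1.56 for DNAJB11 (adjusted p = 4.27e-05), -2.34 for DNAJC3 (adjusted p = 0.000365), -1.58 for DNAJC10 (adjusted p = 1.21e-05) and -1.30 for SEC63 (adjusted p = 4.49e-05). The 5 of 6 called lower compare with 16.7% of all genes, and the member median of -1.57 with -0.04. DNAJC1 read 1187, 1127 and 1343 against 954 on the control and 1576 on GS replicate 2, and differed by -0.41 (95% interval -0.74 to -0.07, adjusted p = 0.062); it passed on the deposited scale (-0.78, adjusted p = 0.000789) and after quantile normalization (-0.48, adjusted p = 0.0163). GS+Rot and GS+Rot_S may come from 1 culture. With GS+Rot as the only inhibitor array, the same number of members, 5, were lower, and without GS replicate 2 SEC63 missed the threshold (-1.16, adjusted p = 0.0502).

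Under TM no member was called lower with the same compounds. DNAJB9 read 926 with Rot and 1069 with AA against 667 with TM alone, DNAJB11 2968 and 2813 against 2953, and DNAJC3 1615 and 1185 against 997. DNAJC10 read 1588 and 1667 against 1527, and SEC63 1174 and 1195 against 1154. Each lay beside or above the TM array. None of the 6 members passed in either direction, where 0.804% of all genes did: the differences were 0.57 for DNAJB9 (95% interval -0.44 to 1.58), -0.03 for DNAJB11 (95% interval -0.56 to 0.50), 0.47 for DNAJC3 (95% interval -0.57 to 1.51), 0.09 for DNAJC10, 0.04 for SEC63 and 0.46 for DNAJC1 (adjusted p = 0.27 for DNAJC1, the lowest of the 6).

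Whether Rot and AA acted differently under 2DG and under TM was tested as a difference of differences. DNAJB11 passed (log2 -1.57, SE 0.34, adjusted p = 0.022), where 1.84% of all genes were called lower. The others were close to the threshold or beyond it: DNAJC3 -2.36 (adjusted p = 0.0585), SEC63 -0.999 (adjusted p = 0.0606), DNAJC1 -0.81 (adjusted p = 0.0793), DNAJC10 -0.91 (adjusted p = 0.0906) and DNAJB9 -1.16 (95% interval -2.5 to 0.18, adjusted p = 0.327). The member median was -1.08 against -0.10 over all genes. On the deposited scale, where the median of all genes was -0.40 and 761 genes were called lower, every member but DNAJB9 passed. The call on DNAJB11 did not hold without 2DG+AA (adjusted p = 0.0561), TM+AA (adjusted p = 0.0671) or 2DG replicate 2 (adjusted p = 0.206).

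**Figure D3:**
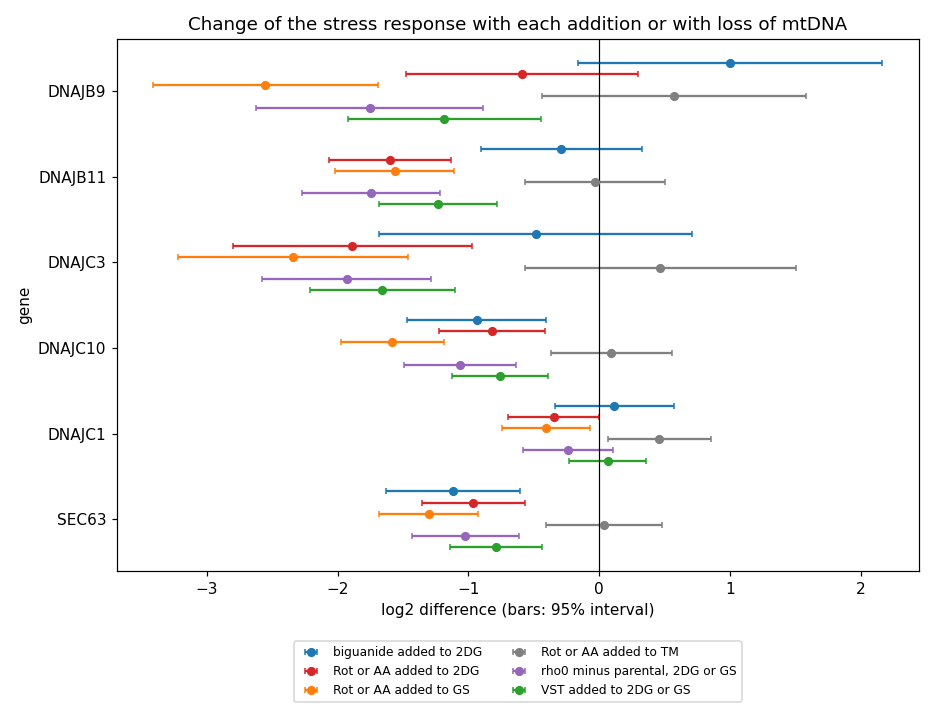
Fitted log2 difference of each member (rows) when a biguanide, Rot or AA, or VST is added to a stress, or when rho0 is compared with parental cells; points are estimates and bars 95% intervals, and the vertical line is no difference. Adding Rot or AA to GS (orange) gave -2.55 for DNAJB9 and -1.30 for SEC63, adding them to TM (grey) gave 0.57 and 0.04, and the estimates for DNAJC1 lay between -0.41 and 0.46.

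Cells without mitochondrial DNA were then compared with their parents under 2DG or GS. In HT-1080(rho0) under 2DG, DNAJB11 read 809 against 986 on its control, DNAJC3 299 against 300, and SEC63 554 against 643. DNAJB9 read 666 against 180, a change of 1.85 that lies inside the parental range of 1.72 to 2.32. DNAJC10 read 790 against 654 and DNAJC1 1019 against 714. Under GS, DNAJB9 in HT-1080(rho0) read 293 against 197 (0.56, parental 1.92 and 2.79), and in HT-29(rho0) at 14 h it read 336 against 421 (-0.32, parental 1.74 at 14 h).

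Over the 3 pairings of rho0 with parental arrays, the response was lower in rho0 for DNAJB9 (log2 -1.76, SE 0.40, adjusted p = 0.0124), DNAJB11 (log2 -1.75, SE 0.24, adjusted p = 0.00155), DNAJC3 (log2 -1.93, SE 0.30, adjusted p = 0.00227), DNAJC10 (log2 -1.07, adjusted p = 0.00548) and SEC63 (log2 -1.02, adjusted p = 0.00538). The 5 of 6 called lower compare with 10.5% of all genes, and the member median of -1.41 with -0.03. The GS array of HT-1080(rho0) held floating cells and its parental arrays did not, and HT-29(rho0) at 14 h is set against a parental mean over both times; with the 14 h array as its only partner, 5 members were also lower. DNAJC1 did not pass (log2 -0.24, 95% interval -0.58 to 0.11), with changes of 0.51, 0.82 and 0.44 on the rho0 arrays, but it did on the deposited scale (-0.48, adjusted p = 0.0462). Under TM the HT-1080(rho0) array gave 2.13 for DNAJB9, 1.99 for DNAJB11, 1.75 for DNAJC3, 1.28 for DNAJC10, 0.67 for DNAJC1 and 1.25 for SEC63, beside 1.60, 1.79, 1.52, 1.08, 0.61 and 1.08 on the parental array; that difference was not tested.

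Of the partner lists, 6 of 9 HSP70 cycle genes were lower in rho0 cells (SDF2L1 -2.44, HYOU1 -2.02), as were 9 of 10 XBP1 and ATF6 targets (HERPUD1 -2.76, SEL1L -2.66) and 6 of 10 PERK and ATF4 genes (TRIB3 -2.48, ASNS -2.18). Among the SEC translocon genes 3 of 9 were lower (SEC61A1 -1.12, TRAM1 -1.05, SSR1 -0.94) and SEC62, the channel partner of SEC63, was higher (0.48). The list medians were -1.35, -1.72, -1.76 and -0.53. Of the 24 J-domain genes outside the ER lumen 1 was higher, DNAJC9 (0.49), and 3 were lower, DNAJB6 (-1.08), DNAJC16 (-0.98) and DNAJC21 (-0.52).

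On average over 3 settings, 5 of the 6 members were lower with VST than with stress alone, with DNAJC1 the exception. With 2DG, DNAJB9 read 522, DNAJB11 1103 and DNAJC3 191, against 162, 972 and 264 on control 3. With GS in HT-1080 they read 677, 1218 and 684 against 171, 863 and 461 on control 1, and in HT-29 269, 2195 and 977 against 176, 1697 and 702. DNAJB9 was thus still 1.65 and 1.95 above its control in HT-1080 but 0.60 above it in HT-29, where GS alone at 18 h gave 3.41 and 4.04. In HT-1080, DNAJB9 changed by 1.72 to 2.32 under 2DG alone and by 1.92 and 2.79 under GS alone. Its GS+VST value thus lay inside the GS range there, and its averaged difference rests mostly on HT-29. Averaged over the 3 settings, VST minus stress alone was -1.18 for DNAJB9 (SE 0.34, adjusted p = 0.0159), -1.23 for DNAJB11 (adjusted p = 0.000725), -1.66 for DNAJC3 (adjusted p = 0.000441), -0.76 for DNAJC10 (adjusted p = 0.00397) and -0.79 for SEC63 (adjusted p = 0.00246).

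These 5 of 6 called lower compare with 24.1% of all genes, the highest such share among the comparisons with a compound, and the member median of -0.99 with -0.06. DNAJC1 differed by 0.07 (95% interval -0.23 to 0.36); on the deposited scale, where the median gene moved to -0.43, it differed by -0.34 (adjusted p = 0.0594). Its changes with VST were 0.63, 0.99 and 1.19, the last of these above each HT-29 array of GS alone (0.45 to 1.09). DNAJB9 missed the threshold without GS replicate 1 (-0.96, adjusted p = 0.1) or HT-29 GS replicate 1 (-1.07, adjusted p = 0.0507), and with the mean over its probe sets (-1.07, adjusted p = 0.051). Of the partner lists, 5 of 9 HSP70 cycle genes, 3 of 9 SEC translocon genes, 8 of 10 XBP1 and ATF6 targets and 5 of 10 PERK and ATF4 genes were lower, with none higher, while 3 of the 24 other J-domain genes were higher and 4 lower.

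Without stress, loss of mitochondrial DNA left no member past the threshold, where 13.1% of all genes were called in either direction (member median 0.11, all genes 0.02). SEC63 had the lowest adjusted p: it read 643 and 648 in HT-1080(rho0) against 461 to 547 in HT-1080, with no overlap, and differed by 0.29 (95% interval 0.01 to 0.57, adjusted p = 0.163). Between the parental lines, HT-29 controls were higher for DNAJB11 (1195 to 1697 against 819 to 972, 1.67-fold, adjusted p = 4.64e-05), DNAJC3 (460 to 702 against 234 to 461, 1.89-fold, adjusted p = 0.00275) and DNAJC10 (767 to 1053 against 631 to 717, 1.38-fold, adjusted p = 0.00223). The arrays of the lines did not overlap for DNAJB11 and DNAJC10 and overlapped slightly for DNAJC3. The 3 of 6 called higher compare with 27.3% of all genes. DNAJB9 (0.28, adjusted p = 0.129), DNAJC1 (0.24) and SEC63 (-0.09) did not pass. The single HT-29(rho0) control read 421 for DNAJB9, 1535 for DNAJC10 and 815 for SEC63, each above the 3 HT-29 controls.

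The probe sets of a gene did not always move alike. The 3 probe sets of DNAJB9 gave 2.68 to 3.36 with the biguanides, in each case above all 2DG arrays of the same probe set (1.39 to 2.58), so its pattern did not hang on 1 probe set. For DNAJC3 probe set 208499_s_at gave 2.46, 2.73 and 2.73 with Met, Bu and Phen, above 1.89 to 2.25 under 2DG alone, whereas the main probe set 1558080_s_at gave 0.68, 1.60 and 1.5. For SEC63 the main probe set 201916_s_at fell to its control level with the biguanides, while 201914_s_at kept 0.43, 0.57 and 0.57 of the 1.17 to 1.47 seen under 2DG. The dim probe sets 229969_at and 201915_at of SEC63, with median signals of 58.9 and 46.7 against 586 for the main one, gave -0.61 to 0.42 under 2DG alone. The dim probe set 229588_at of DNAJC10 gave 1.09, 0.08 and 0.12 under 2DG, where the other 3 past the filter gave 0.85 to 1.59. Probe sets 243635_at of DNAJC10 and 235395_at of SEC63 did not pass the filter.

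**Figure D4:**
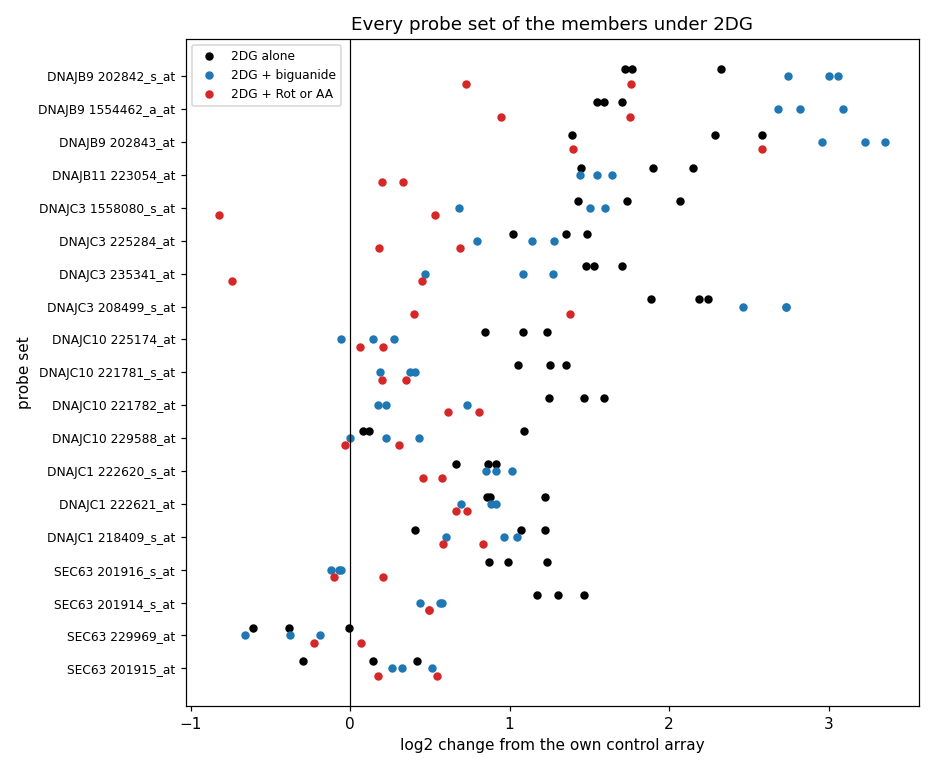
Log2 change from the own control (x axis) for each member probe set past the filter (rows) in HT-1080 with 2DG alone (black, 3 arrays), with a biguanide added (blue, 3 arrays) and with Rot or AA added (red, 2 arrays). The blue points lie above the black in each DNAJB9 probe set (2.68 to 3.36) and in DNAJC3 208499_s_at (2.46 to 2.73), and below the black in the main probe sets of DNAJC10 and SEC63 (-0.12 to 0.27).

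Over the 26 treated arrays, which share controls and scaling, the members differed in how closely they followed each other. DNAJC10 and SEC63 were most alike (Pearson r 0.94), followed by DNAJB11 and DNAJC3 (0.90), and DNAJC1 with SEC63 (0.50) and DNAJC10 (0.51) were least alike. The genes most like DNAJB11 were SDF2L1 (0.95), HSP90B1 (0.94), MYDGF (0.94), PDIA6 (0.93) and HYOU1 (0.93). For DNAJC3 they were HYOU1 (0.93), SEL1L (0.92), UBE2J1 (0.91), DNAJB11 (0.90) and AARS1 (0.87). DNAJC10 was most like TRAM1 (0.96), MAGT1 (0.95), COPA (0.94), SEC63 (0.94) and GMPPA (0.93), and SEC63 most like WARS1 (0.96), DNAJC10 (0.94), MAGT1 (0.94), LZTFL1 (0.93) and TRAM1 (0.93). DNAJB9 had other neighbours: ACBD3 (0.90), TMEM39A (0.89), MAP1LC3B (0.88), DNAJC6 (0.87) and MXD1 (0.87). DNAJC1 had the loosest, PLRG1 (0.84), HSPA13 (0.83), TAX1BP1 (0.80), GOT1 (0.80) and MAP1LC3B (0.79). These correlations are descriptions of the same arrays and carry no p-value.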

How the data were processed

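The deposited values were 1 signal intensity per probe set and array on a linear scale, made by the authors with MAS5, per the submitters' processing notes; 232 of 54675 probe sets had a missing value and were left out. Of all probe sets 41097 carry 1 gene symbol in the platform annotation, 1801 several and 11777 none. Here signals were multiplied so that each array had the same 2% trimmed mean, 114; 5% of it (5.72) was added, and log2 was taken. Probe sets reaching 40% of it on at least 2 arrays were kept (21441), and the one with the highest mean stood for its gene (11436 genes).

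Groups came from the labels. limma 3.58.1 (R 4.3.3, eBayes with an intensity trend) was fitted to all 38 arrays with 1 coefficient per treated group, leaving 5 residual degrees of freedom, or per compound class, leaving 11. Untreated lines were compared on the 12 control arrays, leaving 8. Groups of 1 array are assumed to vary like the replicated ones. Benjamini-Hochberg adjustment ran over all genes in each of 15 comparisons, at 0.05. The control set, that is a control array with the treated arrays whose descriptions name it, was a fixed block. The pairing comes from those descriptions, and the deviations of paired arrays correlated at 0.30 to 0.63.

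The number of arrays limits the precision. The members and the 5 gene lists were chosen with earlier results of these data known. Named genes were the 6 members, the 5 genes most correlated with each, and up to 4 genes per list. DNAJC25, SEC61G and SYVN1 had no probe set of a single symbol. The scripts were tested on simulated data. Alternatives covered scaling, offset, filter, probe set choice, trend, block, lines, time, floating cells and single arrays left out. Not every array was left out in every comparison. Each other probe set of a member was added after the data were seen, as were the motif parts CCAAT and CCACG.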

Additional observations from a re-analysis of the deposited data

Results flagged for a closer look

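Among the 6 members on the 6 HT-1080 controls, 2 had an array far from the others; chance alone gives about 1 in 20. For DNAJB11 the highest was control 3, at 972 against 819 to 871 on the others, with a gap of 0.661 of the whole range. Control 3 is the own control of the biguanide and 2DG+VST arrays. For SEC63 the lowest was control 1, at 461 against 528 to 547, with a gap of 0.784 of the range. Control 1 is the own control of GS replicate 1 and of GS+VST in HT-1080.

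The response to 2DG or GS differed between rho0 and parental cells for 5 members in the test of the difference: -1.76 for DNAJB9, -1.75 for DNAJB11, -1.93 for DNAJC3, -1.07 for DNAJC10 and -1.02 for SEC63, all on the log2 scale. The effect of Rot or AA on DNAJB11 differed between 2DG and TM by -1.57.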

How the results depend on the processing

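Of the member values under other settings, 849 kept direction and side of the threshold, 13 lost it, 32 gained it and 0 reversed; with 1 array left out these were 663, 52, 5 and 0. With other probe sets they were 168, 19, 3 and 5. The 5 reversals were all dim SEC63 probe sets: 229969_at under 2DG (-0.34), under GS in HT-29 (-0.0401) and for Rot or AA with 2DG (0.0937), and 201915_at for biguanides (0.28) and for Rot or AA (0.11) with 2DG. Values that had not passed changed sign in 11, 17 and 14 cases.

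Members past the threshold moved as follows. For Rot or AA under 2DG minus under TM, 1 passed, against 5 on the deposited scale, 3 after quantile normalization, 2 with an offset of 20%, 3 with the stricter filter, 0 without the intensity trend and 5 with arrays of the same line. Biguanides against 2DG gave 2, and 0 with the mean of probe sets. GS in HT-1080 gave 6, and 3 without the trend; GS in HT-29 gave 6, and 1 at 14 h only. TM gave 0, and 6 with the same line, where 130 genes were called higher and 63 lower. Biguanides minus Rot and AA gave 0, and 1 with the same line. Without the replicate block, TM gave 2 (DNAJB11, SEC63) and biguanides minus Rot and AA 2 (DNAJB9, DNAJB11); biguanides against 2DG gave 3, DNAJB9 being added (0.88, adjusted p = 0.0317). Without the block the member count of no other comparison moved by over 1.5 times.

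With 1 array left out, the counts of members were 1 to 6 for 2DG, 0 to 0 for GS in HT-1080, 5 to 6 for GS in HT-29, 0 to 1 for GS between lines, 2 to 2 for biguanides and 1 to 4 for Rot or AA against 2DG. They were 4 to 6 for Rot or AA against GS, 0 to 2 for 2DG minus TM and 5 to 5 for rho0. VST gave 4 to 5 and HT-29 controls 3 to 4. TM, Rot or AA with TM, rho0 controls and biguanides minus Rot and AA gave 0 to 0. The 16 arrays left out for rho0 included no rho0 array, and the 16 for VST no VST array and not control 3. Control 3 also stayed in for biguanides against 2DG (9 left out) and minus Rot and AA (6). The TM array stayed in for TM (1 left out), Rot or AA with TM (3) and 2DG minus TM (11). Dependence on those arrays was not tested.

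All-gene counts moved more. For 2DG 949 genes passed, 492 to 2751 over settings and 92 to 202 with 1 array left out; for GS in HT-1080 1076, 443 to 2801 and 20 to 47; for biguanides minus Rot and AA 2, 1 to 253 and 0 to 30. On the deposited scale the splits of higher and lower genes went from 857 and 1633 to 267 and 2913 for biguanides against 2DG, from 1168 and 1934 to 256 and 4060 for Rot or AA against 2DG, from 1583 and 1915 to 708 and 3762 against GS, from 1746 and 2753 to 356 and 4756 for VST, and from 908 and 1204 to 251 and 2218 for rho0. Members called lower were then 2, 5, 6, 5 and 6, and the median gene shifted to -0.50, -0.48, -0.39, -0.43 and -0.26. The cause of these moves was not tested.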
